A study of Mus musculus with 4 samples.

Results

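Open chromatin in the mouse heart does not lie evenly along the chromosomes, and distal peaks that stand close together form dense domains. Such domains were taken here from an ATAC-seq count table of hearts at postnatal day 14, from Carm1 mutant and wild-type mice. ATAC-seq inserts sequencing adapters with the transposase Tn5 where DNA is accessible, so the count of a peak measures how open that stretch is. Autosomal peaks were sorted, peaks within 1 kb of an end of a protein-coding RefSeq gene were dropped, and successive remaining peaks with a gap of at most 3 kb were joined. Runs of 5 or more peaks were kept. This gave 1144 runs holding 7884 peaks, which is 8.964% of the 87948 peaks of the table and 11.11% of its 70979 distal autosomal peaks. The rule used peak positions alone and no count. Peaks are themselves found from reads, and how this peak set was made is not given. Whether membership depends on the levels of either genotype was not tested.

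Each genotype had 2 libraries of heart tissue. The mutant group carried a Carm1 mutation whose allele and altered exons the labels do not give, and the other group was labelled wild type. Day 14 is the age in the sample labels, whereas the series' design text speaks of neonatal hearts. No sorting of cells is mentioned, and the labels do not say whether the libraries of a genotype came from separate animals, so p-values measure the spread between these libraries. In whole tissue, fewer cells of a type and a less open site in each cell cannot be told apart.

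Carm1 encodes coactivator-associated arginine methyltransferase, a transcriptional coactivator that places methyl groups on arginines of histone H3 and of other nuclear proteins, and that nuclear receptors and other factors bring to enhancers. Enhancers are stretches of DNA, often far from promoters, that transcription factors keep open and that raise the transcription of a gene at a distance. In cardiac muscle, genes for contractile proteins and for the factors that control them often have several enhancers next to each other. Openness alone does not show that a site is an enhancer, and no enhancer mark was measured in these libraries, so the domains are called runs of distal peaks throughout.

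Some runs hold starts of RefSeq transcripts all the same, because non-coding genes and internal starts of coding genes lie outside the dropped gene ends. Of the 7884 member peaks, 264 overlapped a RefSeq start window (250 bases before to 50 bases after a start), or 3.349%, against 2247 of the other 63095 distal autosomal peaks, or 3.561%. The 264 member peaks lay in 218 runs. In the called runs and those named by rule, 3 windows lay wholly inside a peak that itself passed the test, and they are shown because a change in openness and a known start coincide there. They are an internal start of Shld1 (chr2:132689907-132690206, plus strand), an internal start of Sh3bp5 (chr14:31417628-31417927, minus strand) and the start of the non-coding gene Gm36486 (chr17:29437530-29437829, minus strand). The start of Mir1a-1hg (chr2:180385354-180385653, plus strand), the host transcript of the muscle microRNA miR-1a-1, is shown because it lies in the strongest run that passed the test. The sequences are RefSeq windows on build GRCm38.p6 (mm10), read 5′ to 3′, and capitals mark matches to the GATA factor motif AGATAA on either strand.
Shld1: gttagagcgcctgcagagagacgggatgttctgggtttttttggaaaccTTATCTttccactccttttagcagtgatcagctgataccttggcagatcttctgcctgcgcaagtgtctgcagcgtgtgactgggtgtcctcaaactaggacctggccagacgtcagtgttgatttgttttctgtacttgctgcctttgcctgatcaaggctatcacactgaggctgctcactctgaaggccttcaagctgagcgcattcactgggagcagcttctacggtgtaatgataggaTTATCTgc
Sh3bp5: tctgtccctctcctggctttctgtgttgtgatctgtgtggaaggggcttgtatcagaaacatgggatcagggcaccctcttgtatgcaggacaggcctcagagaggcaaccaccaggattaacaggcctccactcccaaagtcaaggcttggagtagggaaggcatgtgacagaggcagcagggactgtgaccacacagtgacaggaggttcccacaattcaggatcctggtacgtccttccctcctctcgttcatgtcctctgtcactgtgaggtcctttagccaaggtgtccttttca
Gm36486: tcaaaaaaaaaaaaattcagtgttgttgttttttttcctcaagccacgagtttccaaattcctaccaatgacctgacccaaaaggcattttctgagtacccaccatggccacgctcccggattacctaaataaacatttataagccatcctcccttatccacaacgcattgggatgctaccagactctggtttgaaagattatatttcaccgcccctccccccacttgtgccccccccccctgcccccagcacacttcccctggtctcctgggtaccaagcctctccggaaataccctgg
Mir1a-1hg: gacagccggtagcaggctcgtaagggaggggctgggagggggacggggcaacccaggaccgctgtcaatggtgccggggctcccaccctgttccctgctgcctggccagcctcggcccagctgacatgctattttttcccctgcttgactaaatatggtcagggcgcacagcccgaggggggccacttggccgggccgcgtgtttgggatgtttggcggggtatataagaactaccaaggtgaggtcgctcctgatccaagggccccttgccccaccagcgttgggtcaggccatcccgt

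Each window was searched on both strands, and matches could overlap. The motif of the GATA factors was AGATAA. For the TEAD family of Hippo signalling, the letters searched were GGAATG. The site of the stress-responsive factor AP-1 was taken as TGANTCA, with any base in the middle. The MEF2 and CArG motifs, known from muscle genes, were searched as well. Of the 32851 RefSeq windows of this length in the table, 11.18% held the GATA motif, 14.66% the TEAD motif, 7.808% the AP-1 motif, 3.187% the MEF2 motif and 1.629% the CArG motif. The Shld1 window held 2 GATA matches, and the other windows shown held no match to any of the 5 motifs.

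The runs also contained 20 RefSeq microRNA hairpins, in 19 runs. Those at the cardiac myosin and Ppara loci are shown because their runs are described below, with the seed (bases 2 to 8) in capitals. The hairpin of miR-208a lies in the Myh6 run and that of miR-208b in the first Myh7 run, and their mature strands share 1 seed. The hairpins of let-7c and let-7b lie in the run assigned to Ppara, and their mature strands share another seed.
miR-208a-3p: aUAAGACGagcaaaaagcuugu
miR-208b-3p: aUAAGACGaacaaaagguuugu
let-7c-5p: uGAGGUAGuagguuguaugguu
let-7b-5p: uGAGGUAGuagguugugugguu

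The depth and the labels were checked first. Total counts in peaks lay between 15945420 and 16740589 in the mutant libraries and between 17508230 and 19091969 in the wild-type libraries. Over the member peaks, Pearson's r of log2 CPM (CPM being counts scaled to library size by the TMM method) was 0.9496 between the mutant libraries, 0.9646 between the wild-type libraries and 0.9174 to 0.9274 between genotypes. Where a pair of values is given for a genotype, replicate 1 precedes replicate 2. Carm1 itself held no run. The peak at its start had 91.4 and 95.5 CPM in mutant hearts and 90.1 and 89.5 CPM in wild-type hearts. A weak peak inside the gene (chr9:21574070-21574390) had 1.28 and 1.20 CPM in mutant hearts, against 3.17 and 3.35 CPM in wild-type hearts (log2 fold change -1.39, SE 0.38, adjusted p = 0.0367 by edgeR's quasi-likelihood test). Whether that peak lies in the altered part of the gene is not known. Peaks at the ends of sarcomere genes were open (median 56.6 CPM for 24 of 26 genes), and those of Schwann and neuronal genes had a median of 29.2 CPM (5 of 10 genes), endothelial genes 17.7 CPM (26 of 27) and epicardial genes 15.6 CPM (4 of 8). Fibroblast, mural and leukocyte genes had medians between 6.81 and 9.99 CPM, the leukocyte one from 6 of 17 genes. The defining markers of cardiomyocytes were thus open in this tissue.

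A typical run was small. The median run had 6 peaks over 10146 bp, of which 48% lay in peaks, and 488 of the 1144 runs had exactly 5 peaks. The largest had 36 peaks, and spans lay between 3114 and 69143 bp, 13.45 Mb in all. The gap between neighbouring peaks had a median of 745 bp and the widest was 2999 bp, over 6740 gaps. The midpoint of 911 runs (79.63%) lay between the ends of a protein-coding gene, and the other 233 runs took the gene with the nearest end, at a median of 22419 bp from the midpoint of the run; distances given below are from that midpoint too. The files and the gene table give no exons, so no run could be placed in an intron, exon or UTR, and a run's gene is only its neighbour. The runs fell to 838 genes, 194 of which had 2 or more runs.

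Member peaks were wider and more open than other distal peaks. Their median width was 653 bp and their median level 6.54 CPM, against 465 bp and 4.70 CPM for other distal autosomal peaks. They held 9.256% and 9.14% of the counts in the mutant libraries, and 9.216% and 8.863% in the wild-type libraries. Within a run the strongest peak held a median of 37.95% of the level, and between 12.02% and 85.5%. Summed over a run, the level had a median of 62.4 and 61.5 CPM in the mutant libraries and 61.3 and 59.8 CPM in the wild-type libraries.

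Most peaks of these runs did not pass the test between the genotypes, and those that passed were more often higher in the mutant. Of the 7884 member peaks, 279 were higher and 116 lower in Carm1 mutant hearts at an adjusted p under 0.05 by edgeR, together 5.01%. Over all 87948 peaks the share called was 5.5%, with 3.05% higher and 2.45% lower, so the members' share was close to the background. Higher peaks made up 70.63% of the called members. They made up 51.82% of the called peaks among other distal autosomal peaks, where 2094 were higher and 1947 lower, and 80.94% among gene-end peaks, where 259 were higher and 61 lower. The median log2 fold change, mutant over wild type, was 0.04 over the members and -0.03 over the other distal peaks. The difference in this split between the classes was not tested.

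Wild-type replicate 2 weighs on that median. The median level of the members was 6.63 and 6.56 CPM in the mutant libraries, against 6.56 and 6.04 CPM in the wild-type libraries, so wild-type replicate 2 was the lowest. Without that library the members' median log2 fold change was 0.012 and that of all peaks 0.013. Without wild-type replicate 1 these medians were 0.100 and 0.013. The calls moved too: fewer member peaks were called in fits that dropped a wild-type library, and more in those that dropped a mutant one. Among called peaks, the excess of the members' higher share over that of other distal peaks shrank without wild-type replicate 2 or mutant replicate 1. This excess grew without wild-type replicate 1 or mutant replicate 2, and kept its direction in all of these fits. Each such fit leaves 1 genotype with a single library, so the size of the contrast is not settled. Scaled to the total count in peaks instead of TMM, the split was 248 higher and 151 lower, or 62.16% higher, with 45.21% among other distal peaks.

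Summed over whole runs, 60 runs were higher and 29 lower in Carm1 mutant hearts by edgeR, together 7.78% of 1144. The test was adjusted over all 65006 rows of a table in which every distal peak was summed over its run and every other peak kept a row of its own, and 5.85% of those rows were called, 3.18% higher and 2.68% lower. Runs of 2 to 4 peaks were called in 7.148% of cases and single distal peaks in 7.007%, and no test of a difference between these classes was made. Of the called runs 67.42% were higher, against 51.77% of called runs of 2 to 4 peaks and 50.87% of called single distal peaks. These classes differ in depth as well. The median standard error of the log2 fold change was 0.14 for runs of 5 or more and 0.31 for single peaks, and the part of depth in the split was not tested. Scaled to total counts in peaks, 54 runs were higher and 42 lower, or 56.25% higher.

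Near the threshold of 5 peaks the counts were as follows. Runs of exactly 5 peaks had 26 higher and 13 lower of 488, or 7.992%, and the runs of 4 peaks just outside the rule had 35 higher and 26 lower of 1043, or 5.849%. Runs of 10 or more peaks had 8 higher and 2 lower of 128, or 7.812%.

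**Figure D1:**
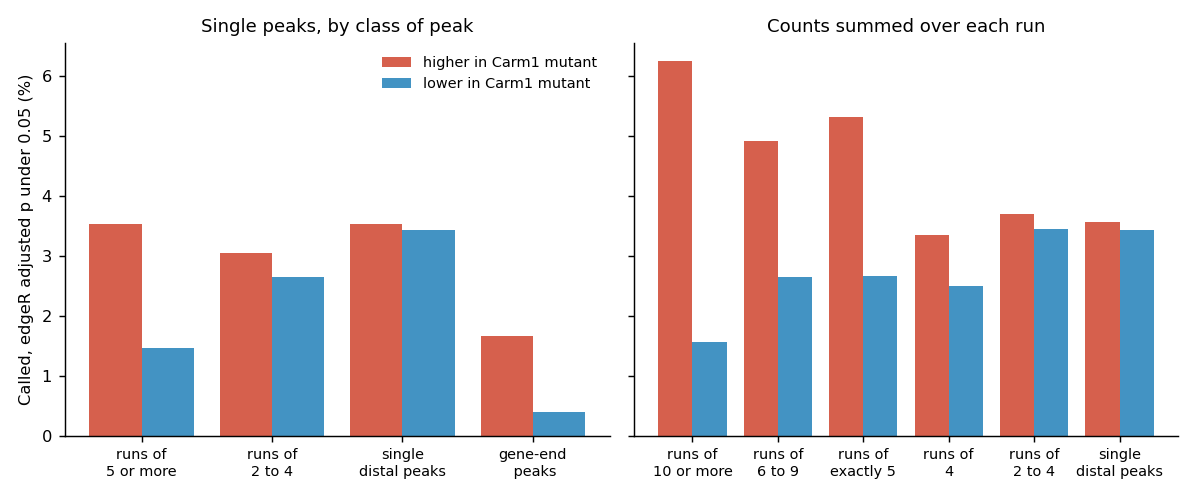
Share of peaks (left) and of runs with summed counts (right) called higher (red) or lower (blue) in Carm1 mutant hearts by edgeR at an adjusted p under 0.05, in percent, by class of peak or number of peaks in the run. Runs of 5 or more had 3.539% of their peaks higher and 1.471% lower, while single distal peaks had 3.53% higher and 3.432% lower.

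The changes were moderate. The 60 higher runs had a median log2 fold change of 0.57, a 1.488-fold higher level in the mutant, with a range of 0.38 to 1.43. The 29 lower runs had a median of -0.59, a 1.509-fold lower level, with a range of -1.12 to -0.43. The genotypes did not overlap in 638 of the 1144 runs (55.77%), 355 with the mutant above and 283 with it below, beside 51.3% of all rows of the table. Among the called runs, the genotypes did not overlap in 59 of the 60 higher and in all 29 lower runs. In such runs leaving out 1 library can hardly turn the sign, so a kept sign adds little. Leaving out a library cost many calls and no direction: all 60 higher and all 29 lower runs kept their sign without any one library, and without wild-type replicate 1 the test still called 26 and 6 of them. Without wild-type replicate 2 it called 10 and 6, without mutant replicate 1 it called 49 and 27, and without mutant replicate 2 it called 50 and 29. The runs called whichever library was left out were 9 higher and 4 lower.

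**Figure D2:**
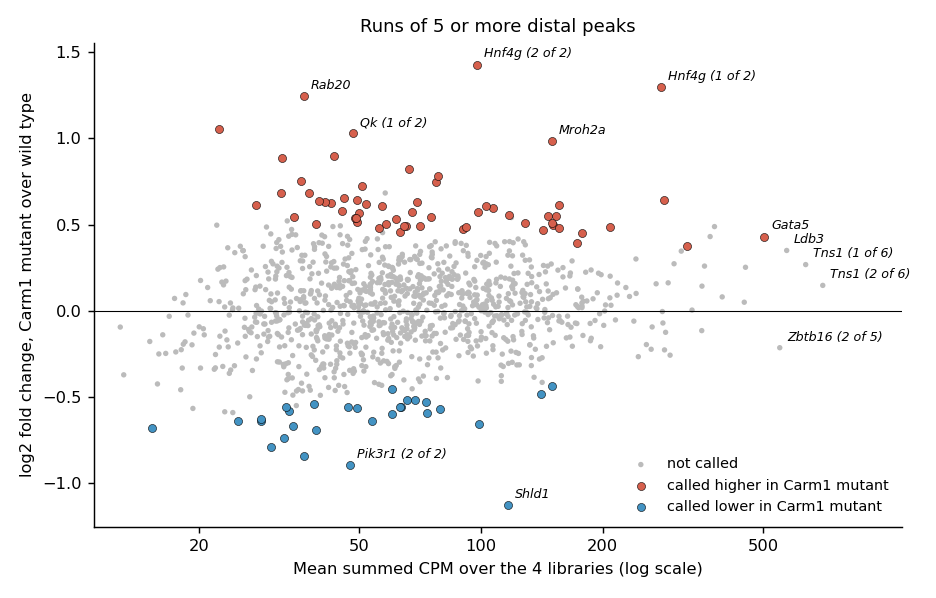
Log2 fold change of each run, Carm1 mutant over wild type, against its mean summed CPM over the 4 libraries (log scale). Grey points are runs that were not called, red points the 60 called higher and blue points the 29 called lower by edgeR; of the 5 runs with the highest mean level, only the one assigned to Gata5 is called.

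The higher run with the smallest p lay within Rab20, which encodes a small GTPase of endosomal traffic (chr8:11457263-11464909, 6 peaks). It had 57.1 and 45.2 CPM in mutant hearts, against 23.0 and 20.2 CPM in wild-type hearts. The genotypes were well apart (log2 fold change 1.24, SE 0.16, adjusted p = 0.0002965 by edgeR). Of its 6 peaks, 4 were called higher, and the strongest (chr8:11457263-11458319) had 34.4 and 24.3 CPM in mutant hearts, against 9.34 and 6.76 CPM in wild-type hearts, while the peak at the far side of the run had 4.02 and 5.30 CPM in mutant hearts and 5.38 and 5.57 CPM in wild-type hearts (adjusted p = 0.686).

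The other higher runs with the smallest p lay at genes of several kinds. The rule took these runs, and the lower ones below, only among called runs whose genotypes did not overlap. Trdn encodes triadin, which ties the calcium buffer calsequestrin to the ryanodine receptor in the sarcoplasmic reticulum. Its run (chr10:33251489-33257025, 5 peaks) had 62.0 and 50.4 CPM in mutant hearts and 31.5 and 28.9 CPM in wild-type hearts (log2 fold change 0.90, SE 0.15, adjusted p = 0.00217 by edgeR). Myoz2 encodes calsarcin-1, a Z-disc protein that binds calcineurin. Its run (chr3:123027539-123033460, 6 peaks, all with positive fold changes) had 45.9 and 37.4 CPM in mutant hearts and 22.9 and 22.1 CPM in wild-type hearts (log2 fold change 0.89, SE 0.16, adjusted p = 0.00337 by edgeR). In both runs each mutant library lay above each wild-type library, which the rule required.

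The run beside Qk (chr17:10192951-10204602, 9 peaks, 7695 bp from the nearest end) had 78.3 and 50.7 CPM in mutant hearts and 34.8 and 28.4 CPM in wild-type hearts (log2 fold change 1.03, SE 0.18, adjusted p = 0.00256 by edgeR). Qk encodes quaking, an RNA-binding protein that controls splicing in muscle and other tissues. Its mutant libraries differed from each other by more than its wild-type libraries did. That the groups did not overlap followed from the rule.

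Within Myl12a, which encodes a regulatory light chain of non-muscle myosin, a run of 6 peaks (chr17:70995570-71000699) had 106.2 and 91.8 CPM in mutant hearts and 59.6 and 55.7 CPM in wild-type hearts (log2 fold change 0.78, SE 0.13, adjusted p = 0.00229 by edgeR). Plcd3 encodes a phospholipase C, and its run of 5 peaks (chr11:103093740-103100316) had 90.9 and 78.9 CPM in mutant hearts and 52.2 and 43.8 CPM in wild-type hearts (0.82, SE 0.14, adjusted p = 0.00233). Within Atcay, a run of 5 peaks (chr10:81207319-81212130) had 31.2 and 29.3 CPM in mutant hearts and 14.1 and 15.02 CPM in wild-type hearts (1.06, SE 0.17, adjusted p = 0.00174). All of these 6 runs, and the Rab20 run, were called whichever library was left out.

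Among the lower runs, the one within Shld1 had the largest fall (chr2:132689162-132702046, 9 peaks). Shld1 encodes a subunit of shieldin, which protects DNA ends during the repair of double-strand breaks. The run had 75.8 and 70.7 CPM in mutant hearts, against 152.6 and 166.5 CPM in wild-type hearts (log2 fold change -1.12, SE 0.12, adjusted p = 0.000115 by edgeR). All 9 peaks had negative fold changes and 4 were called lower. The strongest (chr2:132689162-132690352), which contains the start window with the 2 GATA matches shown above, had 21.0 and 22.7 CPM in mutant hearts, against 60.5 and 73.9 CPM in wild-type hearts (log2 fold change -1.62, SE 0.15, adjusted p = 2.863e-05). The strongest peak at an end of Shld1, which the rule left out, had 37.8 and 32.2 CPM in mutant hearts and 37.2 and 37.8 CPM in wild-type hearts, so the groups overlapped there (-0.10, SE 0.15, adjusted p = 0.758).

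The runs next in order, again among called runs whose genotypes did not overlap, lay within Pik3r1, Map3k20 and Foxn3. Pik3r1 encodes the regulatory subunit of phosphoinositide 3-kinase, and its second run (chr13:101757398-101765382, 7 peaks, all with negative fold changes) had 31.9 and 34.4 CPM in mutant hearts and 62.2 and 61.1 CPM in wild-type hearts (log2 fold change -0.89, SE 0.14, adjusted p = 0.00139 by edgeR). Map3k20 encodes the stress-activated kinase ZAK, and its run (chr2:72365872-72376075, 5 peaks) had 26.4 and 25.7 CPM in mutant hearts and 45.4 and 48.0 CPM in wild-type hearts (-0.84, SE 0.15, adjusted p = 0.00293). Foxn3 encodes a forkhead repressor, and run 3 there (chr12:99335689-99352623, 9 peaks) had 75.6 and 77.8 CPM in mutant hearts and 121.9 and 119.7 CPM in wild-type hearts (-0.66, SE 0.12, adjusted p = 0.00450). The mutant libraries lay below the wild-type libraries in each, and the 4 lower runs called whichever library was left out are these 3 and the Shld1 run.

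The remaining 4 of the 8 lower runs with the smallest p lost their call when a wild-type library was left out, which leaves a single wild-type library, while their log2 fold changes stayed negative. Within Dip2c, a run of 6 peaks had 21.9 and 22.3 CPM in mutant hearts and 40.3 and 36.1 CPM in wild-type hearts (log2 fold change -0.79, SE 0.16, adjusted p = 0.00626 by edgeR, and -0.70 with an adjusted p of 0.0902 without wild-type replicate 1). Within Rapgef5, which encodes an exchange factor for Rap GTPases, a run of 5 peaks had 24.2 and 24.6 CPM in mutant hearts and 43.5 and 37.9 CPM in wild-type hearts (-0.74, SE 0.15, adjusted p = 0.00865, and -0.63 with an adjusted p of 0.136 without wild-type replicate 1). The first of 3 runs within Sgms1, which encodes a sphingomyelin synthase, had 29.5 and 30.2 CPM in mutant hearts and 47.8 and 48.6 CPM in wild-type hearts (-0.69, SE 0.14, adjusted p = 0.00878). That p was 0.0638 when wild-type replicate 1 was left out and 0.0956 when wild-type replicate 2 was, at log2 fold changes of -0.70 and -0.67. A run 205844 bp from the nearest end of Lacc1 had 40.0 and 44.3 CPM in mutant hearts and 64.5 and 66.6 CPM in wild-type hearts (-0.64, SE 0.14, adjusted p = 0.0104). Left out in turn, the wild-type replicates gave adjusted p of 0.0588 and 0.112, at log2 fold changes of -0.66 and -0.61. In all 4 runs the genotypes did not overlap, which the rule required, so leaving out 1 library could hardly turn the sign.

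**Figure D3:**
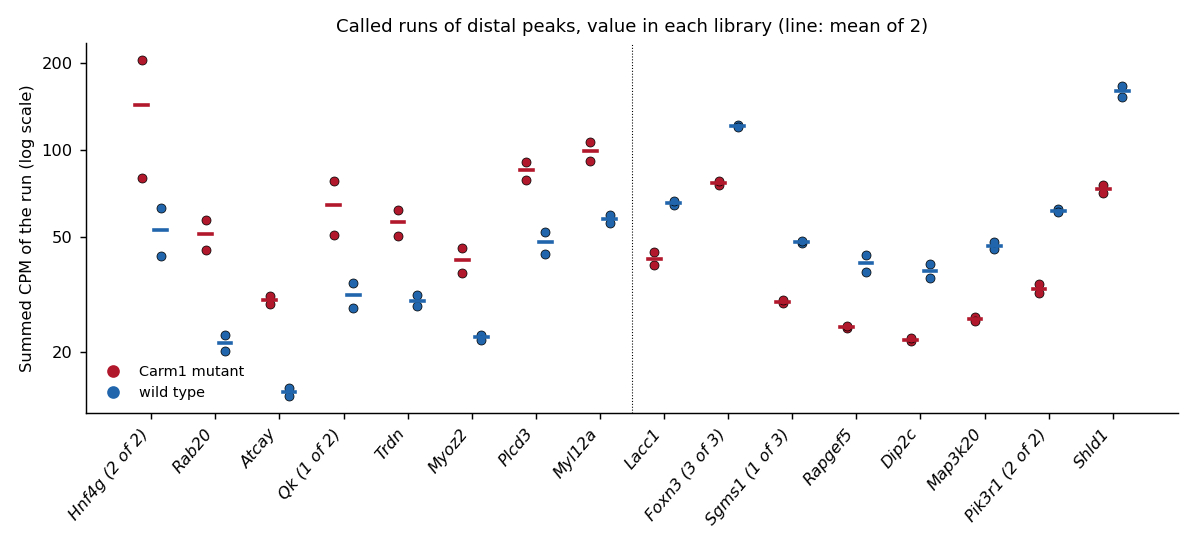
Summed CPM (log scale) of the 8 higher and 8 lower called runs with the smallest p, in each library, with Carm1 mutant points in red on the left of each pair and wild-type points in blue on the right; short lines are the means of 2 libraries. The rule took only called runs in which the genotypes did not overlap, so the mutant and wild-type points are separate in all 16 runs. The mutant points of the Hnf4g run, 79.9 and 205 CPM, are the furthest apart.

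Inside a called run the peaks tended to move one way, but seldom all passed the test. A run was called on the sum of these same peaks, so the lean to 1 sign follows in part from that choice. All peaks had positive fold changes in 37 of the 60 higher runs, and all had negative fold changes in 17 of the 29 lower runs. Of all 1144 runs, 173 had peaks of 1 sign only. The 60 higher runs held 427 peaks, 120 of which were called higher, and the 29 lower runs held 180 peaks, 33 of which were called lower. The strongest peak was itself called in 31 of the higher and 19 of the lower runs. In 12 called runs, 6 higher and 6 lower, no single peak was called, while 206 runs that were not called held at least 1 called peak. The second Thra run is one of the 12, and its 5 peaks had log2 fold changes between 0.39 and 0.89.

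The patterns inside the runs differed. At Map3k20 a single peak carried the change (chr2:72365872-72366928), with 10.4 and 9.78 CPM in mutant hearts against 26.0 and 30.2 CPM in wild-type hearts (log2 fold change -1.48, SE 0.19, adjusted p = 0.000292 by edgeR), and the other 4 peaks were not called. In the Foxn3 run 1 of 9 peaks was called, with 23.4 and 27.95 CPM in mutant hearts against 53.0 and 53.5 CPM in wild-type hearts. At Lbh, by contrast, 4 of 10 peaks spread over the 18900 bp of the run were called higher. Its strongest peak, with 60.7 and 55.3 CPM in mutant hearts against 50.5 and 42.1 CPM in wild-type hearts, was not among them (adjusted p = 0.191). In the first Myh7 run 13 of 14 peaks had positive fold changes, and only the strongest, at 66.1 and 60.5 CPM in mutant hearts against 45.1 and 34.3 CPM in wild-type hearts, was called (0.67, SE 0.15, adjusted p = 0.0142).

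The other runs with a start window in a called peak were both higher. The run within Sh3bp5 (chr14:31392434-31418132, 16 peaks), a gene for an adaptor that binds the SH3 domain of the kinase Btk, had 204 and 206 CPM in mutant hearts and 152 and 148 CPM in wild-type hearts (log2 fold change 0.45, SE 0.11, adjusted p = 0.0243 by edgeR). The peak with the start window shown above had 18.5 and 17.8 CPM in mutant hearts and 11.2 and 8.88 CPM in wild-type hearts (0.86, adjusted p = 0.0191). The run assigned to Pim1, a gene for a serine/threonine kinase, lies 53462 bp from its nearest end (chr17:29432223-29442423, 7 peaks). It had 72.1 and 73.3 CPM in mutant hearts and 52.6 and 47.8 CPM in wild-type hearts (0.53, SE 0.13, adjusted p = 0.0223), and its peak with the Gm36486 start had 36.01 and 35.6 CPM in mutant hearts and 23.7 and 20.8 CPM in wild-type hearts (0.69, adjusted p = 0.0169). The genotypes did not overlap in these runs and peaks. When wild-type replicates 1 and 2 were left out in turn, the adjusted p was 0.116 and 0.209 for the Sh3bp5 run and 0.0952 and 0.274 for the Pim1 run.

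Called peaks of opposite direction inside 1 run were rare. Of the 67 runs with 2 or more called peaks, 52 had higher peaks only, 8 had lower peaks only and 7 had both. The run within Pakap (chr4:57834093-57850382) held 2 lower peaks and 1 higher peak. The higher peak (chr4:57837001-57837323) had 5.35 and 3.98 CPM in mutant hearts against 1.02 and 1.70 CPM in wild-type hearts (log2 fold change 1.77, SE 0.37, adjusted p = 0.0100 by edgeR). The stronger of the lower peaks (chr4:57841867-57843390) had 19.6 and 23.0 CPM in mutant hearts against 37.8 and 32.1 CPM in wild-type hearts (-0.71, SE 0.17, adjusted p = 0.0176). Summed, the run had 111.3 and 110.6 CPM in mutant hearts against 146 and 130 CPM in wild-type hearts and was not called (adjusted p = 0.134). Runs within Sptbn1, which encodes a spectrin, and within Slc23a2, which encodes a vitamin C transporter, held 1 higher and 1 lower peak each, and their sums were not called either (adjusted p = 0.220 and 0.765).

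**Figure D4:**
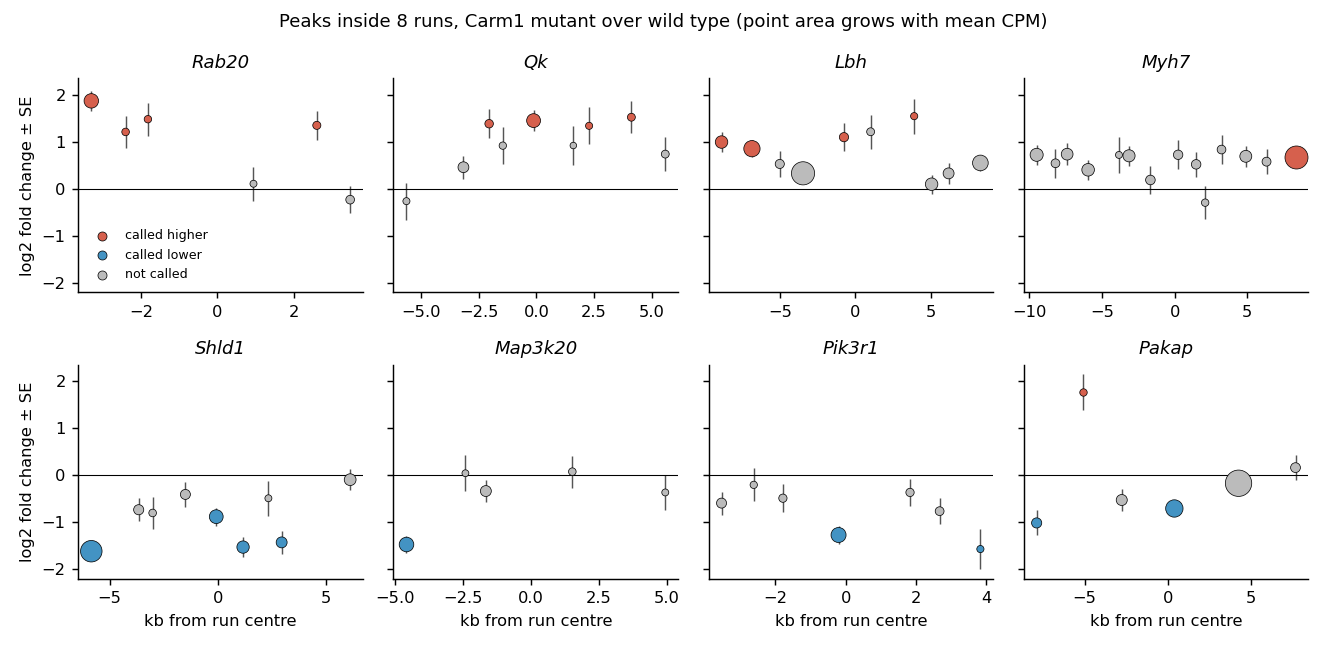
Log2 fold change (Carm1 mutant over wild type, with SE) of each peak inside 8 runs, against its distance in kb from the centre of the run; point area grows with the mean CPM, and red and blue points were called higher and lower by edgeR. In the Shld1 run all 9 points lie below 0, in the Map3k20 run 1 of 5 points is called, and the Pakap run holds called points on both sides of 0.

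Peaks of 1 run shared part of their variation whatever libraries were compared. Of the variance of the log2 ratio between the genotype means, 27.36% lay between runs. The same share was 24.14% for mutant replicate 2 over mutant replicate 1 and 11.7% for wild-type replicate 2 over wild-type replicate 1. In runs of 2 to 4 peaks these shares were 31.73%, 19.55% and 16.76%, the first of them above that in runs of 5 or more. Without the 89 called runs the shares in runs of 5 or more were 16.86%, 19.96% and 11.12%. The called runs were chosen by their genotype difference, so leaving them out lowers the first share by construction. Between a single mutant and a single wild-type library the share was 23.85% to 26.23%. Peaks of a run thus varied together between the mutant replicates too, to a share close to that between single libraries of the 2 genotypes.

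Most of the largest and most open runs did not pass the test. The run with the most peaks, 36, lay within Tns1, which encodes tensin 1, a protein that joins integrins to actin (chr1:73912041-73981184). It had 722 and 669 CPM in mutant hearts and 599 and 557 CPM in wild-type hearts, which did not overlap, and did not pass the test (log2 fold change 0.27, SE 0.10, adjusted p = 0.118 by edgeR). Of its 36 peaks, 33 had positive fold changes and 3 were called higher, among them chr1:73945123-73947848 with 41.1 and 39.6 CPM in mutant hearts against 23.2 and 22.2 CPM in wild-type hearts. The strongest gene-end peak of Tns1 was called higher, with 29.2 and 22.8 CPM in mutant hearts against 14.9 and 14.2 CPM in wild-type hearts (0.84, SE 0.19, adjusted p = 0.0128). The next run within Tns1 had the highest level of all, 749 and 726 CPM in mutant hearts and 696 and 635 CPM in wild-type hearts (0.15, SE 0.10, adjusted p = 0.410).

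The run of 32 peaks within Fhl2, which encodes a LIM-domain protein of heart muscle, had 259 and 254 CPM in mutant hearts and 255 and 293 CPM in wild-type hearts, with overlapping groups (log2 fold change -0.09, SE 0.11, adjusted p = 0.689 by edgeR). Without wild-type replicate 2 its sign turned, to 0.01. The run of 29 peaks within Zbtb16, which encodes the zinc-finger factor PLZF, had 528 and 489 CPM in mutant hearts and 557 and 623 CPM in wild-type hearts (-0.21, SE 0.10, adjusted p = 0.236). It held 2 peaks called lower, and chr9:48721917-48724553 was the stronger, with 84.3 and 81.9 CPM in mutant hearts against 125.3 and 117.7 CPM in wild-type hearts.

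The run of 29 peaks assigned to Ppara (chr15:85665410-85718325), a gene for a nuclear receptor of fatty acid metabolism, lies 43043 bp from the gene end and contains the let-7c and let-7b hairpins. It had 500.3 and 482.0 CPM in mutant hearts and 438 and 387 CPM in wild-type hearts (log2 fold change 0.25, SE 0.11, adjusted p = 0.164 by edgeR), and none of its peaks was called although 24 of 29 had positive fold changes.

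Of the 5 runs with the highest mean level, only the one assigned to Gata5 passed the test (chr2:180383747-180404278, 8 peaks, 58509 bp from the nearest end of Gata5, a gene for a cardiac zinc-finger factor). It had 620 and 536 CPM in mutant hearts and 457 and 401 CPM in wild-type hearts (log2 fold change 0.43, SE 0.11, adjusted p = 0.0246 by edgeR). All 8 peaks had positive fold changes. The peak with the Mir1a-1hg start shown above had 159 and 158 CPM in mutant hearts against 123 and 118 CPM in wild-type hearts and just missed the threshold (adjusted p = 0.0504), and the strongest peak (chr2:180397554-180401218) had 249 and 188 CPM in mutant hearts against 168 and 140.3 CPM in wild-type hearts (0.50, SE 0.13, adjusted p = 0.0327). The adjusted p of the whole run was 0.227 without wild-type replicate 2, 0.0957 without mutant replicate 1 and 0.0635 with loess scaling.

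Runs at sarcomere genes were called in 1 direction only. The sarcomere list had 17 runs at 11 of its 26 genes, 5 of them higher and 0 lower, with 14 positive fold changes and a median log2 fold change of 0.29. Over all 1144 runs, 60 were higher and 29 lower, and the median was 0.03. Assigned to the nearest gene end only, the sarcomere list had 15 runs at 9 genes, 4 of them higher and 0 lower. Neither Myl2 nor Myh6 then had a run. The summed level of the 17 runs was 3809 and 3060 CPM in mutant hearts and 2892 and 2567 CPM in wild-type hearts. Sarcomere genes code for the contractile apparatus and mark cardiomyocytes, and at the ends of 24 of these genes the summed level was 2231 and 1997 CPM in mutant hearts and 1805 and 1728 CPM in wild-type hearts. Whether the share of cardiomyocyte DNA differed between the libraries was not tested.

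The 5 higher runs at sarcomere genes were those of Myoz2, Myh7, Tnnt2, Myl2 and Tpm1, named here after their values were seen. The first Myh7 run, at the gene for the slow beta isoform of myosin heavy chain and around the miR-208b hairpin, had 205 and 173 CPM in mutant hearts and 141 and 106 CPM in wild-type hearts (log2 fold change 0.61, SE 0.14, adjusted p = 0.0132 by edgeR). The run outside Tnnt2, the gene for cardiac troponin T, and 7646 bp from its nearest end, had 193 and 155 CPM in mutant hearts and 127 and 111 CPM in wild-type hearts (0.55, SE 0.13, adjusted p = 0.0173). Most of these calls were lost without wild-type replicate 2: the adjusted p was 0.237 at Myh7, 0.191 at Tnnt2, 0.282 at Myl2 and 0.272 at Tpm1, which leaves Myoz2 as the 1 call. Without mutant replicate 1 it was 0.0688 at Myl2 and 0.187 at Tpm1, where the log2 fold change was 0.28.

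The Myl2 run, at the gene for the ventricular regulatory light chain, had 166 and 136 CPM in mutant hearts and 114 and 98.8 CPM in wild-type hearts (log2 fold change 0.51, SE 0.13, adjusted p = 0.0258 by edgeR). The Tpm1 run, at the gene for alpha-tropomyosin, had 277 and 211 CPM in mutant hearts and 187 and 161 CPM in wild-type hearts (0.49, SE 0.13, adjusted p = 0.0335). In these runs mutant replicate 1 was the highest library and wild-type replicate 2 the lowest. The same order held at the run of 21 peaks within Ldb3, the gene for a Z-disc protein, which had 701 and 579 CPM in mutant hearts and 529 and 475 CPM in wild-type hearts and was not called (0.35, SE 0.11, adjusted p = 0.0646). The Myh6 run, at the gene for the fast alpha isoform and around the miR-208a hairpin, had 313 and 345 CPM in mutant hearts and 288 and 257 CPM in wild-type hearts (0.27, SE 0.11, adjusted p = 0.156).

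Titin, the giant spring of the sarcomere, had 5 runs, none of them called and all with positive fold changes between 0.03 and 0.49. The largest, with 31 peaks (chr2:76867122-76934378), had 538 and 346 CPM in mutant hearts and 342 and 288 CPM in wild-type hearts (log2 fold change 0.49, SE 0.15, adjusted p = 0.0565 by edgeR), and 4 of its peaks were called higher. Mutant replicate 1 was the highest library by far: without it the adjusted p was 0.596, and without mutant replicate 2 it was 3.941e-07.

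Runs at genes of calcium handling and ion channels went both ways. The list had 27 runs at 10 of its 25 genes, 3 higher and 2 lower, with a median log2 fold change of 0.02. Of these, the Trdn run is described above and both lower runs lay at Ryr2.

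Ryr2, the gene for the calcium release channel of the sarcoplasmic reticulum, had more runs than any other gene, 11 with 74 peaks. Run 10 (chr13:12091649-12103619, 10 peaks, all with negative fold changes) had 51.5 and 43.9 CPM in mutant hearts and 76.0 and 68.6 CPM in wild-type hearts (log2 fold change -0.60, SE 0.14, adjusted p = 0.0153 by edgeR). Run 11 (chr13:12124741-12134021) had 124 and 131 CPM in mutant hearts and 156 and 188 CPM in wild-type hearts (-0.43, SE 0.12, adjusted p = 0.0435). The other 9 runs were not called and had fold changes between -0.25 and 0.32. Without wild-type replicates 1 and 2 in turn, the adjusted p was 0.172 and 0.0617 for run 10 and 0.0479 and 0.516 for run 11.

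The transcription factor list had 24 runs at 16 of its 35 genes, 20 of them with positive fold changes, 1 called higher and 0 lower (median log2 fold change 0.13). The called one was the second run of Thra, the gene for thyroid hormone receptor alpha (chr11:98761721-98766043), with 35.95 and 31.1 CPM in mutant hearts and 24.5 and 19.4 CPM in wild-type hearts (0.61, SE 0.17, adjusted p = 0.0363 by edgeR). That call did not hold without either wild-type library or mutant replicate 1 (adjusted p between 0.0508 and 0.413), nor in DESeq2 (adjusted p = 0.0602), and the run goes to another gene when only the nearest gene end counts. The runs of Gata4, Tbx5, Tbx20, Mef2a, Mef2c and Gata6 were not called.

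Among genes of the fetal and stress response, the Lbh run (chr17:72920233-72939133) had 195 and 170 CPM in mutant hearts and 133 and 116 CPM in wild-type hearts (log2 fold change 0.55, SE 0.12, adjusted p = 0.0129 by edgeR, and 0.181 without wild-type replicate 2). Lbh encodes a transcription cofactor of the developing limb bud and heart. The Rcan1 run, at the gene for a calcineurin inhibitor, had 72.2 and 78.6 CPM in mutant hearts and 53.1 and 54.1 CPM in wild-type hearts (0.49, SE 0.13, adjusted p = 0.0313). Its p was 0.222 when wild-type replicate 1 was left out and 0.218 when wild-type replicate 2 was. These were the 2 called runs of 5 at 3 listed genes. The other 3 runs all lay at Fhl2 and had log2 fold changes of -0.40, -0.25 and -0.09, none called, so the median of the list was -0.09 with 2 positive values. Fatty acid and energy genes had 4 runs and no call, and the run with the smallest p, within Lpl, the gene for lipoprotein lipase, had 36.2 and 35.0 CPM in mutant hearts and 43.1 and 50.01 CPM in wild-type hearts (-0.39, SE 0.15, adjusted p = 0.123).

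Marker genes of other cell types had few runs. The endothelial list had 12 runs at 7 of its 27 genes, with no call, 1 positive fold change and a median log2 fold change of -0.13. Their summed level was 786 and 822 CPM in mutant hearts and 961 and 792 CPM in wild-type hearts, so wild-type replicate 1 stood above the other 3 libraries. At the ends of 26 of these genes the sums were 558 and 532 CPM in mutant hearts and 689 and 522 CPM in wild-type hearts, with the same library on top. The endothelial run with the smallest p lay within Pecam1, with 51.7 and 53.4 CPM in mutant hearts and 69.7 and 66.0 CPM in wild-type hearts (-0.37, SE 0.13, adjusted p = 0.103 by edgeR). What the endothelial signal of wild-type replicate 1 adds to the other results was not tested.

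The mural list had 3 runs. The run within Cspg4, the gene for the pericyte proteoglycan NG2, had 55.9 and 64.7 CPM in mutant hearts and 38.6 and 38.5 CPM in wild-type hearts (log2 fold change 0.65, SE 0.14, adjusted p = 0.0113 by edgeR), and its p was 0.0811 when wild-type replicate 1 was left out and 0.102 when wild-type replicate 2 was. The fibroblast list had 2 runs and the leukocyte list 1, with no call, and the epicardial and the Schwann and neuronal lists had none. At Loxl1 the run had 33.5 and 36.1 CPM in mutant hearts and 34.6 and 48.8 CPM in wild-type hearts (-0.26, SE 0.16, adjusted p = 0.373), and at Runx1 32.0 and 35.5 CPM in mutant hearts and 31.5 and 35.0 CPM in wild-type hearts (0.02, SE 0.15, adjusted p = 0.963). The genotypes overlapped in both.

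**Figure D5:**
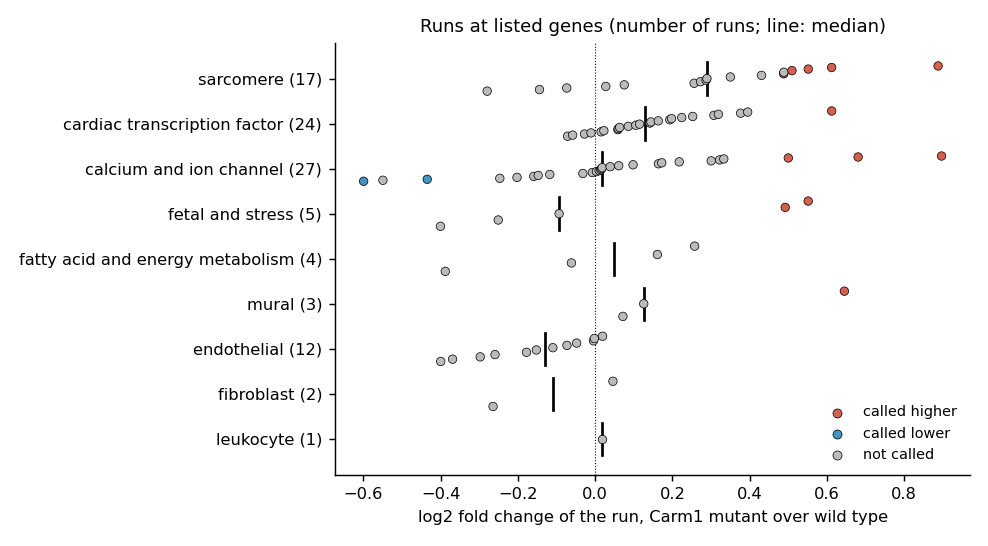
Log2 fold change (Carm1 mutant over wild type) of every run at a listed gene, 1 point per run, with the median of each list as a vertical line; red and blue points were called higher and lower by edgeR. The sarcomere list has 5 red points and a median of 0.29, the calcium and ion channel list has called points on both sides, and the endothelial list has no called point and 1 positive value.

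Genes with several called runs kept 1 direction. The called runs lay at 81 genes, and no gene had called runs in both directions. Susd6 had 3 runs, all lower, with a sum of 90.0 and 87.5 CPM in mutant hearts and 138 and 133 CPM in wild-type hearts. Eepd1 had 2 runs, both lower, at 47.9 and 50.2 CPM in mutant hearts and 73.6 and 75.9 CPM in wild-type hearts. Zbtb16 had 2 lower runs of 5, and run 5 had 58.0 and 61.2 CPM in mutant hearts and 88.6 and 83.8 CPM in wild-type hearts (log2 fold change -0.53, SE 0.13, adjusted p = 0.0203 by edgeR). Without wild-type replicate 1 or 2, the adjusted p lay between 0.0684 and 0.340 for the 3 Susd6 runs, between 0.0408 and 0.421 for the 2 Eepd1 runs and between 0.0575 and 0.551 for the 2 Zbtb16 runs. Neighbouring runs of 1 gene share the libraries and often the surrounding domain, so they are not independent of each other.

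In a few higher runs 1 mutant library stood far above the other. Mutant replicate 2 exceeded mutant replicate 1 by more than 1.5 times in 7 of the 60 higher runs and in 18 of all 1144 runs. Counted in either direction, the mutant libraries were that far apart in 25 of all 1144 runs and the wild-type libraries in 2. The 2 runs assigned to Hnf4g, whose nearest end is 499773 and 477914 bp away, lie at chr3:3000231-3016284 and chr3:3026596-3033637. The first, of 14 peaks, had 223 and 570.4 CPM in mutant hearts and 191 and 132 CPM in wild-type hearts (log2 fold change 1.30, SE 0.25, adjusted p = 0.00555 by edgeR). The second, of 5 peaks, had 79.9 and 205 CPM in mutant hearts and 63.1 and 42.8 CPM in wild-type hearts (1.43, SE 0.26, adjusted p = 0.00401). Without mutant replicate 2 their log2 fold changes were 0.47 and 0.59, both still called by edgeR at adjusted p of 0.00743 and 0.0009495. Neither was called by DESeq2, at 0.356 and 0.295.

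The run of 16 peaks within Mroh2a (chr1:88229913-88256880) had 126 and 271 CPM in mutant hearts and 116 and 84.6 CPM in wild-type hearts (log2 fold change 0.99, SE 0.22, adjusted p = 0.0127 by edgeR). It held 7 called peaks, all higher, and the first Hnf4g run 11, the most of any run. Without mutant replicate 2 the value at Mroh2a was 0.33 with an adjusted p of 0.0893, and by DESeq2 the adjusted p was 0.420. The 2 called runs within Sfi1 had a like pattern. Run 3 there had 253 and 440 CPM in mutant hearts and 247 and 196 CPM in wild-type hearts (0.64, SE 0.17, adjusted p = 0.0316 by edgeR, and 0.19 with an adjusted p of 0.3725 without mutant replicate 2). Run 2 had 64.5 and 129 CPM in mutant hearts and 65.1 and 50.01 CPM in wild-type hearts, the only called run in which the genotypes overlapped (0.75, SE 0.21, adjusted p = 0.0391). Without mutant replicate 2 its value was 0.17 with an adjusted p of 0.505.

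Gene-end peaks, which the rule had set aside, passed the test at a minority of the genes with called runs. Over all 15633 autosomal gene-end peaks, 1.657% were called higher and 0.3902% lower. The 60 higher runs lay at 57 genes, 52 of which had a gene-end peak, and the strongest of these was called higher at 6 genes and lower at 0, with a median log2 fold change of 0.22 and 44 positive values. The 6 include Atcay, Myoz2 and Mroh2a. Only the strongest gene-end peak of each gene counted here, and its share called was not tested against that of all gene-end peaks. At Myoz2 the gene-end peak had 48.5 and 48.4 CPM in mutant hearts and 31.1 and 32.0 CPM in wild-type hearts (0.62, SE 0.15, adjusted p = 0.0177 by edgeR). At Rab20 it had 40.6 and 31.7 CPM in mutant hearts and 26.3 and 22.6 CPM in wild-type hearts (0.57, SE 0.17, adjusted p = 0.0523), and at Qk 36.8 and 28.02 CPM in mutant hearts and 31.2 and 32.7 CPM in wild-type hearts (0.02, SE 0.16, adjusted p = 0.961). The 29 lower runs lay at 24 genes, 21 of which had a gene-end peak, and 0 of these were called in either direction (median -0.07). A further 709 genes were those with a gene-end peak and at least 1 run that was not called. At these, 9 gene-end peaks were called higher and 1 lower, with a median of 0.04. This group shares some genes with the groups above, such as Tns1, which had called and uncalled runs. No transcript was measured, so whether the genes beside these runs changed in expression is not known.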

How the data were processed

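ATAC-seq was measured in 2 libraries of Carm1 mutant and 2 of wild-type heart tissue at postnatal day 14. The values are read counts per peak, not normalized, in a single table as the authors deposited it. FastQC, Bowtie2 and build mm10 are named per the submitters' processing notes; the peak caller is not given in the sources used here. The same holds for read filters and for whether peak starts count from 0 or 1. Total counts were 15945420 to 19091969. No value was left out for low counts.

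Runs were built by position, with gene ends from RefSeq (GRCm38.p6). Counts were summed per run, and both tables were tested with edgeR 4.0.16 (quasi-likelihood, TMM factors from the peak table, genotype only), with Benjamini-Hochberg adjustment over 87948 peaks or 65006 rows and a threshold of 0.05. Adjusted p-values without another name come from that test. The script was tested on simulated data. An exact permutation test of 2 against 2 cannot go below p = 0.333. DESeq2 1.42.0, limma voom 3.58.1, other scalings, filters, joining rules and left-out libraries were the alternatives.

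The runs named are the 5 with most peaks, the 5 with the highest mean CPM, the 8 higher and 8 lower called runs with the smallest p and separate genotypes, the run with the smallest p of each list, and the 3 with most called peaks in 1 or in both directions. Other runs at listed genes, at genes with several runs, within Sfi1 and around the sequences shown were chosen after their values were seen. Members and lists were chosen with earlier results of these data known. The 11 lists had 221 entries, all matched to RefSeq symbols. Variance shares are one-way components of log2(CPM + 0.5) ratios over runs.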

Additional observations from a re-analysis of the deposited data

How the results depend on the processing

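All 60 higher and 29 lower runs kept their sign in each of the 12 refits of the 4 libraries or 3 of them. With 1 library left out this was nearly fixed in advance. The genotypes did not overlap in 59 of the higher and in all 29 lower runs. Member peaks called were 157 higher and 65 lower by DESeq2, and 563 and 282 with the replicate block, under which 104 runs were higher and 64 lower. By DESeq2 that was 2.816% of the members against 2.698% of all peaks. With the block it was 10.72% against 11.06%, so the members stayed close to the background in both. The replicate numbers are not said to mark a shared batch, and deviations of same-numbered libraries correlated at 0.1062 over all peaks, so the block is only an alternative. With 1 library left out, member peaks called were 37 to 500 higher and 17 to 238 lower, runs called 10 to 113 higher and 6 to 76 lower, the members' median log2 fold change 0.01195 to 0.1004 and the runs' median 0.006492 to 0.06909. A left-out library leaves 1 genotype with a single library, assumed to vary like the other. The runs' median was -0.002727 with total counts in peaks and 0.004248 with loess offsets. The direction turned at Runx1 (-0.01602 with total counts in peaks, -0.05236 without wild-type replicate 1, -0.05731 without mutant replicate 2, against 0.1017 without wild-type replicate 2, where the sign held), Fhl2 run 1 (-0.1856 to 0.01341 with 1 library left out) and Loxl1 (-0.4866 to 0.009995). The last 2 turned without wild-type replicate 2. None of the 3 runs was called with all 4 libraries.

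The joining rule set the counts by its construction. Over all 87948 peaks, 5.5% were called, 3.05% higher and 2.45% lower, whatever the joining rule. A gap of at most 1 kb gave 279 runs of 1717 peaks, with 98 peaks higher and 21 lower, 29 runs higher and 6 lower, a members' median of 0.1271 and 45.13% of variance between runs. A gap of at most 6 kb gave 2241 runs of 17597 peaks, with 519 peaks higher and 316 lower, 92 runs higher and 54 lower and 23.57% between runs. At least 4 peaks gave 2187 runs of 12056 peaks, with 196 peaks lower, 95 runs higher and 55 lower. At least 7 peaks gave 399 runs of 3902 peaks, with 150 peaks higher and 52 lower, 25 runs higher and 8 lower and 30.31% between runs. Assigned to the nearest gene end only, the transcription factor list had 0 runs called higher, since the Thra run went to another gene. The sarcomere list then had 4 runs called higher, since the Myl2 run went to another gene. The cause of the other changes was not tested. With 2 libraries per genotype, a run that missed the threshold is not shown to be unchanged.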
